A study of Mus musculus with 28 samples.

Results

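The 10 mouse genes described here, Spp1, Igf1, Gpnmb, Itgax, Clec7a, Cd9, Cd63, Cd68, Ank and Lgals3, encode secreted, surface and endolysosomal proteins known from microglia that gather around amyloid plaques. They were taken by symbol from a count table that held 40481 mouse genes, and each symbol matched 1 row. RNA was sequenced from microglia, sorted with an antibody against CD11b, and from astrocytes, sorted with an antibody against ACSA-2, out of the cortex, hippocampus and thalamus of the same mice. With mouse 459 left out, 13 mice gave 26 libraries, 13 per sort, each mouse being called by the number in its label. In each sort, 4 mice were APPPS1::APOE4fl/fl::ALDH1L1-CreERT, 5 were APPPS1::APOE4fl/fl, 2 were APOE4fl/fl::ALDH1L1-CreERT and 2 were APOE4fl/fl. Values per library are given in these groups for mice 443, 458, 460 and 475, then 439, 447, 469, 774 and 779, then 22 and 26, then 465 and 759. The series text gives 4 mice for each APPPS1 group, whereas the labels gave 5 for each before mouse 459 was left out. APPPS1 is a pair of transgenes, mutant human APP and mutant human presenilin, driven by a neuronal promoter, under which amyloid plaques form. All mice, the controls included, carried human APOE4 flanked by loxP sites in place of mouse Apoe. Tamoxifen was given to all as 2 doses of 100 mg per kg at an age of 3.8 months, 10 days before the cells were taken. The Cre, which tamoxifen switches on, is driven by the Aldh1l1 promoter of astrocytes, so the microglia of Cre-positive mice keep their own APOE4. No group without tamoxifen was analysed here, and the exons between the loxP sites are not given in the sources used here.

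Microglia are the resident macrophages of the brain. Around amyloid plaques they lower the genes of their resting state and raise a set of genes for phagocytosis, lysosomes, lipid handling and secreted factors, a change that depends in mice on the receptor TREM2 and its ligands, APOE among them. Osteopontin (Spp1) and insulin-like growth factor 1 (Igf1) are secreted, the integrin CD11c (Itgax) and the lectin receptor dectin-1 (Clec7a) sit at the cell surface, and GPNMB, CD63 and CD68 lie largely in late endosomes and lysosomes.

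The libraries held 26162612 to 59238523 counts. Of the defining markers of the sorts, P2ry12 ran from 4525 to 10630 CPM (counts per 1000000 mouse gene counts) in the microglia libraries and from 10.5 to 18.6 CPM in the astrocyte libraries. Aldh1l1 ran from 0.501 to 2.73 CPM in the microglia libraries and from 303 to 586 CPM in the astrocyte libraries. The 2 libraries of mouse 459 held the markers of the opposite sort and were left out. Human APOE, the floxed gene, lay at 507 to 827 CPM in astrocytes of the 4 APPPS1 Cre-positive mice, against 1273 to 1864 CPM in those of the 5 APPPS1 Cre-negative mice. Without APPPS1 it lay at 521 and 926 CPM in Cre-positive astrocytes, against 1052 and 1411 CPM in Cre-negative astrocytes. In microglia of APPPS1 mice human APOE lay at 328 to 1050 CPM in the Cre-positive mice and at 110 to 815 CPM in the Cre-negative ones. Some libraries stood apart in markers of other cells. In microglia, the summed level of 15 microglia identity genes was 21080 CPM in mouse 26 and 40250 to 49290 CPM in the other 12 mice. The sum of 14 monocyte and neutrophil genes was 8359 CPM in mouse 439, 9037 CPM in mouse 26 and 312 to 4428 CPM in the other 11. CD11b, the sorting antigen, is also carried by monocytes and neutrophils.

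The stretches upstream of 3 members are shown as examples that hold short motifs searched for in all promoters. They are the 150 bases before the RefSeq transcript start on GRCm38.p6, printed 5′ to 3′ on the strand of the gene. Capitals mark the AP-1 motif TGANTCA and the PU.1 core GAGGAA, on either strand. Matches also lay in the 150 bases of Igf1 (both motifs) and of Clec7a, Cd63 and Ank (GAGGAA), which are not printed. The windows are chr5:104434961-104435110 on the plus strand for Spp1, chr7:128129400-128129549 on the plus strand for Itgax and chr11:69666171-69666320 on the minus strand for Cd68.
Spp1: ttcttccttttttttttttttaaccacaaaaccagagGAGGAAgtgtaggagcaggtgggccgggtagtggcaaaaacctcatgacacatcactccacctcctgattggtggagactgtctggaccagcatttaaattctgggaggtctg
Itgax: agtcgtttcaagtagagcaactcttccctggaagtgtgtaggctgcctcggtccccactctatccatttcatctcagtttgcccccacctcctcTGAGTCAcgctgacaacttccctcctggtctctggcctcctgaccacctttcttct
Cd68: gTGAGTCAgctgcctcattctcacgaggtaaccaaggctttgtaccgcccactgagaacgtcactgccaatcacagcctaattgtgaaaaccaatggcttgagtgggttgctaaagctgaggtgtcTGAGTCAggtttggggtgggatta
AP-1 is a dimer of Fos and Jun proteins, and PU.1 is a transcription factor of the myeloid lineage. In the 250 bases before the start, TGANTCA occurred in 3 of the 10 members (Igf1, Itgax and Cd68) and in 6.85% of 27025 mouse promoters. GAGGAA occurred in 6 of the 10 and in 23.1% of the promoters. The letters TCANGTG, an E-box form read by the lysosomal factors of the MiT/TFE family, occurred in 1 of the 10, Lgals3, and in 12.1% of the promoters. The core promoter letters TATAAA occurred in 1 of the 10, Spp1, and in 13% of the promoters. The motifs did not overlap one another in these windows. Such matches describe letters only.

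APPPS1 microglia held more mRNA of 9 of the 10 genes than microglia of mice without APPPS1. The comparison asks how amyloid changes these genes, here averaged over Cre-positive and Cre-negative mice. The gains ran from 2.58-fold for Cd68 to 99.6-fold for Gpnmb, and all 9 passed at an adjusted p under 0.05 with edgeR's quasi-likelihood test over 17593 genes, all 10 members having passed the filter on low counts. Over all genes tested, 6.06% were called higher and 3.52% lower. Lgals3, galectin-3, was the exception, with 42.4 to 182 CPM in APPPS1 microglia and 53.95 to 358.5 CPM in those without. The median log2 fold change of the 10 was 2.20, against -0.05 over all genes. For 7 of the 10, each of the 9 APPPS1 libraries stood above each of the 4 others, which held for 2% of all genes. In sorted bulk RNA, more cells that express a gene and more of its RNA per cell cannot be told apart.

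**Figure D1:**
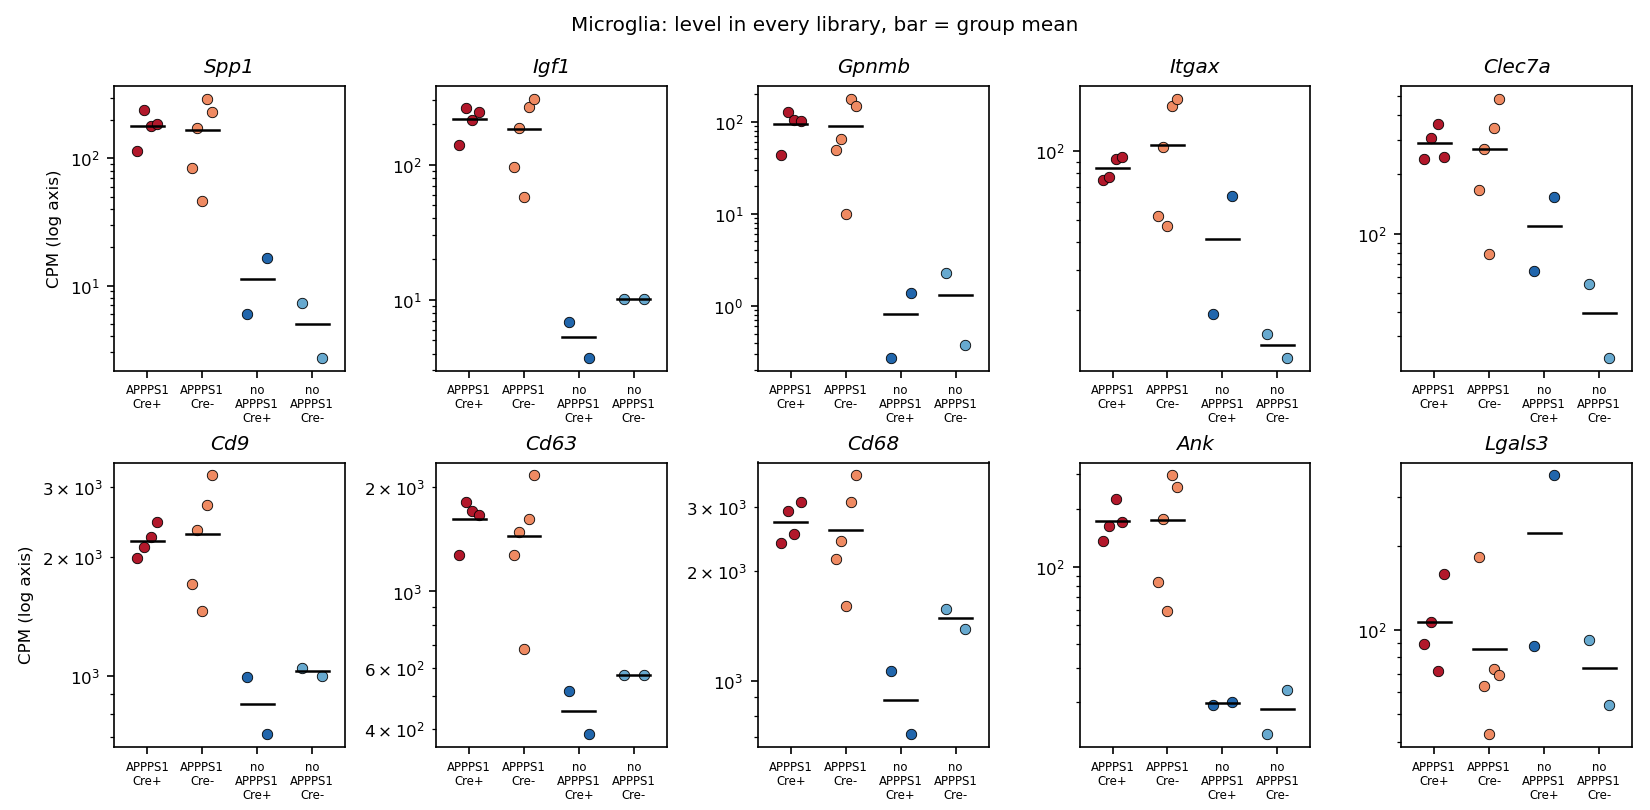
Level of each of the 10 genes in every microglia library, as CPM on a log axis, with APPPS1 Cre-positive (n = 4), APPPS1 Cre-negative (n = 5), Cre-positive (n = 2) and Cre-negative (n = 2) mice without APPPS1 from left to right. Points are mice and bars are group means; for Lgals3 the highest library, at 358.5 CPM, is a mouse without APPPS1, and for Spp1, Igf1, Gpnmb, Cd9, Cd63, Cd68 and Ank all 9 APPPS1 libraries lie above the 4 others.

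The secreted factors changed by over an order of magnitude. Spp1, osteopontin, a phosphoprotein that binds integrins and CD44, lay at 114, 240, 180 and 186 CPM in APPPS1 Cre-positive microglia and at 84.1, 173, 46.05, 293 and 233 CPM in APPPS1 Cre-negative microglia. In microglia without APPPS1 it lay at 5.96 and 16.45 CPM in the Cre-positive mice and at 7.26 and 2.70 CPM in the Cre-negative mice. The lowest APPPS1 library thus held 2.80 times the highest library without APPPS1, and the groups did not overlap. The log2 fold change was 4.69 (SE 0.57, adjusted p = 0.000793). Spp1 spans chr5:104435118-104441050 on GRCm38, and 18.8% of its exon bases are shared with the predicted gene model Gm42793 on the same strand.

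Igf1, the growth factor that signals through the receptors IGF1R and INSR, lay at 139, 264, 214 and 245 CPM in microglia of APPPS1 Cre-positive mice and at 95.75, 186, 57.8, 269 and 306 CPM in those of APPPS1 Cre-negative mice. Without APPPS1 it lay at 6.87 and 3.71 CPM in the Cre-positive mice and at 10.1 and 10.1 CPM in the Cre-negative mice. The lowest APPPS1 library held 5.72 times the highest library without APPPS1, the widest gap among the 10 genes. Its log2 fold change was 4.92 (SE 0.49, adjusted p = 0.000319).

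Gpnmb, a transmembrane glycoprotein of endolysosomes whose outer part can be shed, had the largest fold change of the 10. It lay at 43.1, 126, 105 and 103 CPM in microglia of APPPS1 Cre-positive mice and at 48.9, 64.0, 9.97, 176 and 148.5 CPM in those of APPPS1 Cre-negative mice. Without APPPS1 it was low, with 0.272 and 1.38 CPM in the Cre-positive mice and 2.25 and 0.376 CPM in the Cre-negative mice. The log2 fold change was 6.64 (SE 0.87, adjusted p = 0.00123). Its APPPS1 libraries were also the most spread, the highest holding 17.65 times the lowest.

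The surface receptors rose 4.43-fold (Itgax) and 4.73-fold (Clec7a), and in each a library without APPPS1 reached into the range of APPPS1 mice. Itgax, which pairs with the beta2 integrin chain to form CD11c/CD18, lay at 74.8, 77.2, 92.8 and 94.85 CPM in microglia of APPPS1 Cre-positive mice and at 52.0, 105, 46.9, 158 and 170 CPM in those of APPPS1 Cre-negative mice. In microglia without APPPS1 it lay at 19.2 and 63.3 CPM in the Cre-positive mice and at 15.7 and 12.3 CPM in the Cre-negative mice. The groups overlapped through the 63.3 CPM of mouse 26. Its log2 fold change was 2.15 (SE 0.40, adjusted p = 0.00777).

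Clec7a, dectin-1, a receptor for beta-glucans that signals through the kinase Syk, lay at 240, 305, 361 and 244 CPM in microglia of APPPS1 Cre-positive mice and at 167, 268.5, 78.4, 345.5 and 484 CPM in those of APPPS1 Cre-negative mice. Without APPPS1 it lay at 64.75 and 154 CPM in the Cre-positive mice and at 55.6 and 23.3 CPM in the Cre-negative mice. Mouse 26 again overlapped with the APPPS1 group, above mouse 469. The log2 fold change was 2.24 (SE 0.45, adjusted p = 0.00956), and without mouse 759 the adjusted p was 0.0589. GENCODE M21 annotates Clec7a as a polymorphic pseudogene.

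The tetraspanins and CD68 were abundant in all microglia and rose 2.58- to 3.34-fold. Cd9 encodes a tetraspanin of the plasma membrane, Cd63 one of late endosomes and exosomes, and Cd68 a heavily glycosylated lysosomal membrane protein of macrophages. Cd9 averaged 2248 ± 525 CPM (SD, n = 9) in APPPS1 microglia and 937 ± 154 CPM (SD, n = 4) without APPPS1, with a log2 fold change of 1.42 (SE 0.22, adjusted p = 0.00282). Cd63 averaged 1520 ± 417 CPM in APPPS1 microglia and 513 ± 89.1 CPM without, with a log2 fold change of 1.74 (SE 0.26, adjusted p = 0.00257).

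Cd68 lay at 2379, 2921, 2529 and 3085 CPM in microglia of APPPS1 Cre-positive mice and at 2149, 2416, 1598, 3094 and 3650 CPM in those of APPPS1 Cre-negative mice. In microglia without APPPS1 it lay at 1061 and 712 CPM in the Cre-positive mice and at 1574 and 1389 CPM in the Cre-negative mice. The groups stood apart by little, since the lowest APPPS1 library held 1.02 times the highest one without APPPS1. Its log2 fold change was 1.37 (SE 0.23, adjusted p = 0.00404). Of the exon bases of Cd9, 10.7% overlap Gm26728 on the opposite strand, and no strand setting of the counting was given in the sources used here.

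Ank, a membrane protein that carries pyrophosphate or its precursor out of cells, lay at 136, 163, 223.5 and 171.5 CPM in microglia of APPPS1 Cre-positive mice and at 83.1, 178, 59.1, 296.5 and 258 CPM in those of APPPS1 Cre-negative mice. Without APPPS1 it lay at 19.4 and 20.2 CPM in the Cre-positive mice and at 13.7 and 23.15 CPM in the Cre-negative mice. The lowest APPPS1 library held 2.55 times the highest one without APPPS1. Its log2 fold change was 3.35 (SE 0.43, adjusted p = 0.000967).

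Lgals3, a lectin that binds beta-galactosides on glycoproteins inside and outside the cell, did not pass. It lay at 89.4, 107.5, 71.65 and 160 CPM in microglia of APPPS1 Cre-positive mice and at 182, 63.2, 42.4, 72.6 and 69.0 CPM in those of APPPS1 Cre-negative mice. In microglia without APPPS1 it lay at 87.8 and 358.5 CPM in the Cre-positive mice and at 92.2 and 53.95 CPM in the Cre-negative mice. The log2 fold change was -0.26 (SE 0.39, 95% interval -1.09 to 0.56, adjusted p = 0.704). Its 2 highest libraries, those of mice 26 and 439, were also the 2 with the most RNA of monocyte and neutrophil genes. S100a8, a neutrophil gene among them, lay at 2113 CPM in mouse 439, at 1903 CPM in mouse 26 and at 62.7 to 1279 CPM in the other 11. In mouse 475, Lgals3 came next, at 160 CPM, with a marker sum of 826 CPM. With mice 26 and 439 left out, a choice made after the values were seen, the log2 fold change of Lgals3 was 0.19 (SE 0.27, adjusted p = 0.753), while the other 9 genes all passed, with 5.24 for Spp1, 7.50 for Gpnmb and 2.70 for Clec7a. The part of these cells in the levels of the other members was not tested. For the fit without mice 26 and 439, the share of all genes called is not given here.

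**Figure D2:**
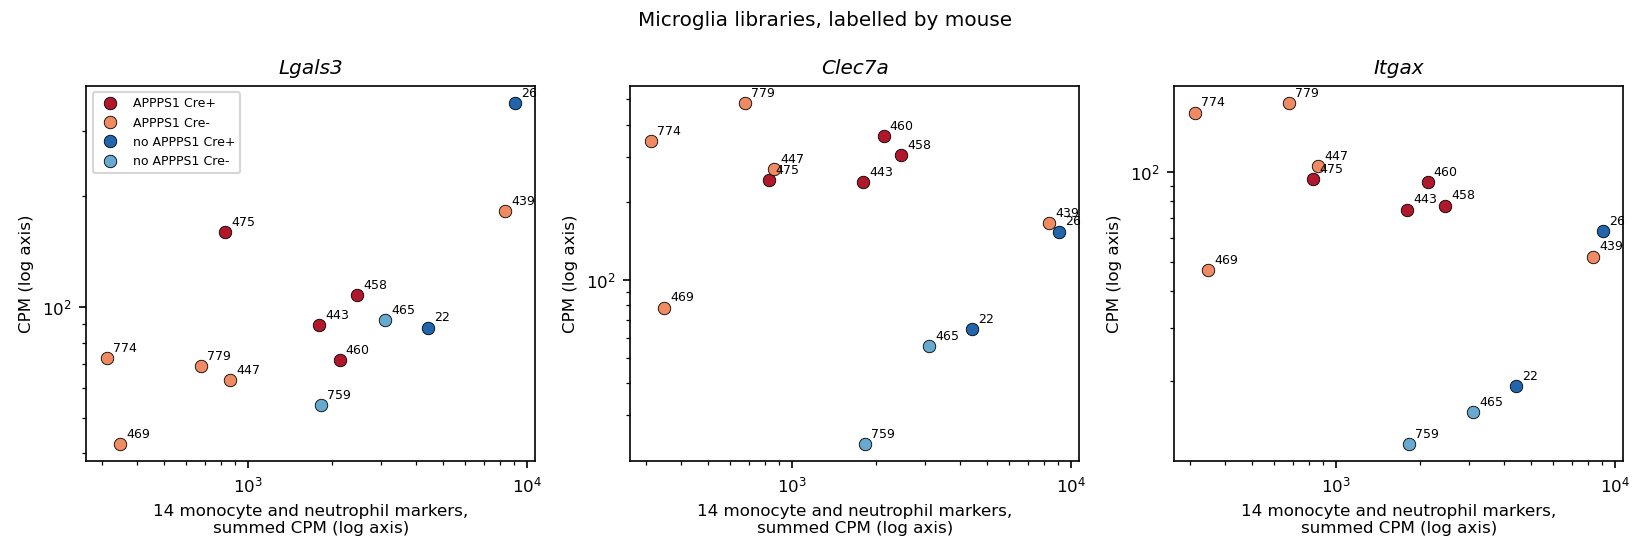
Level of Lgals3, Clec7a and Itgax in each of the 13 microglia libraries (CPM, log axis) against the summed level of 14 monocyte and neutrophil marker genes in the same library (CPM, log axis), labelled by mouse and coloured by genotype group. Mice 439 and 26 lie at the right, at 8359 and 9037 CPM of markers, with 182 and 358.5 CPM of Lgals3.

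Markers of other cells moved with amyloid as well. The sum of 16 astrocyte identity genes was 137 to 258 CPM in APPPS1 microglia and 319 to 442 CPM without, with no overlap. Of the 16, 9 were called lower and 1 higher. At least 13 of the 16 were detected in each APPPS1 library, and Aqp4, a defining marker, lay between 0.0463 and 4.69 CPM over all microglia libraries. Of 14 neuronal genes tested 4 were lower, of 14 endothelial genes 7, of 8 lymphocyte genes 1, of 11 dendritic cell genes 1 and of 10 border macrophage genes 1. Of 13 oligodendrocyte genes 0 passed with edgeR and 1 had an unadjusted p under 0.05. Among the monocyte and neutrophil genes 3 of 14 were lower, or 6 of 14 without mice 26 and 439, and the sum was 312 to 8359 CPM in APPPS1 microglia and 1825 to 9037 CPM without. Of 23 immediate early and dissociation genes 6 were lower, with sums of 5046 to 16130 CPM in APPPS1 microglia and 10690 to 13270 CPM without. Of the 15 microglia identity genes 5 were higher, Trem2 among them, or 2, Trem2 and C1qa, without mice 26 and 439. Without mice 26 and 439, 6 of the 16 astrocyte genes were lower and 0 higher. Gfap then had a log2 fold change of 1.72 (adjusted p = 0.0786 with edgeR). Of the endothelial and the immediate early genes 0 then passed with edgeR, where 8 and 7 had an unadjusted p under 0.05. With the mean log2 level of the astrocyte markers as a covariate, 0 of the 10 members passed with edgeR (adjusted p 0.302 to 0.962), and the log2 fold changes were 3.08 for Spp1, 4.12 for Igf1, 3.59 for Gpnmb and 0.38 for Clec7a. The astrocyte marker sums of the groups did not overlap, so this fit cannot tell the covariate from amyloid. The part of these cells and of dissociation in the changes was not tested.

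In Cre-positive mice alone, whose astrocytes held less human APOE, 7 members passed, namely Spp1, Igf1, Gpnmb, Cd9, Cd63, Cd68 and Ank. Over all genes 3.65% were called higher in that comparison. In Cre-negative mice alone 5 passed, namely Spp1, Igf1, Gpnmb, Itgax and Ank, where 0.279% of all genes were called higher. The groups did not overlap for 9 of the 10 members in Cre-positive mice (10.5% of all genes) nor for 9 of the 10 in Cre-negative mice (5.96% of all genes), Lgals3 being the exception in both. Only 2 mice stood on the side without APPPS1 in each comparison, and single libraries changed the counts. The shares of all genes apply to the fit with all mice, and are not given for the counts with mice left out. For Cre-positive mice the count was 0 without mouse 26, also with mouse 439 left out beside it, and 1 without mouse 458. For Cre-negative mice it was 0 without mouse 465 and 0 without mouse 759. It was 2 without mouse 447 or mouse 458, and 3 without mouse 443, 460, 475, 774 or 779. Without mouse 469, the APPPS1 library with the lowest members, it was 8. With all mice, the log2 fold changes for Spp1 were 4.20 (SE 0.78) in Cre-positive mice and 5.18 (SE 0.82) in Cre-negative mice. Those for Igf1 were 5.52 (SE 0.72) in Cre-positive mice and 4.32 (SE 0.66) in Cre-negative mice.

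**Figure D3:**
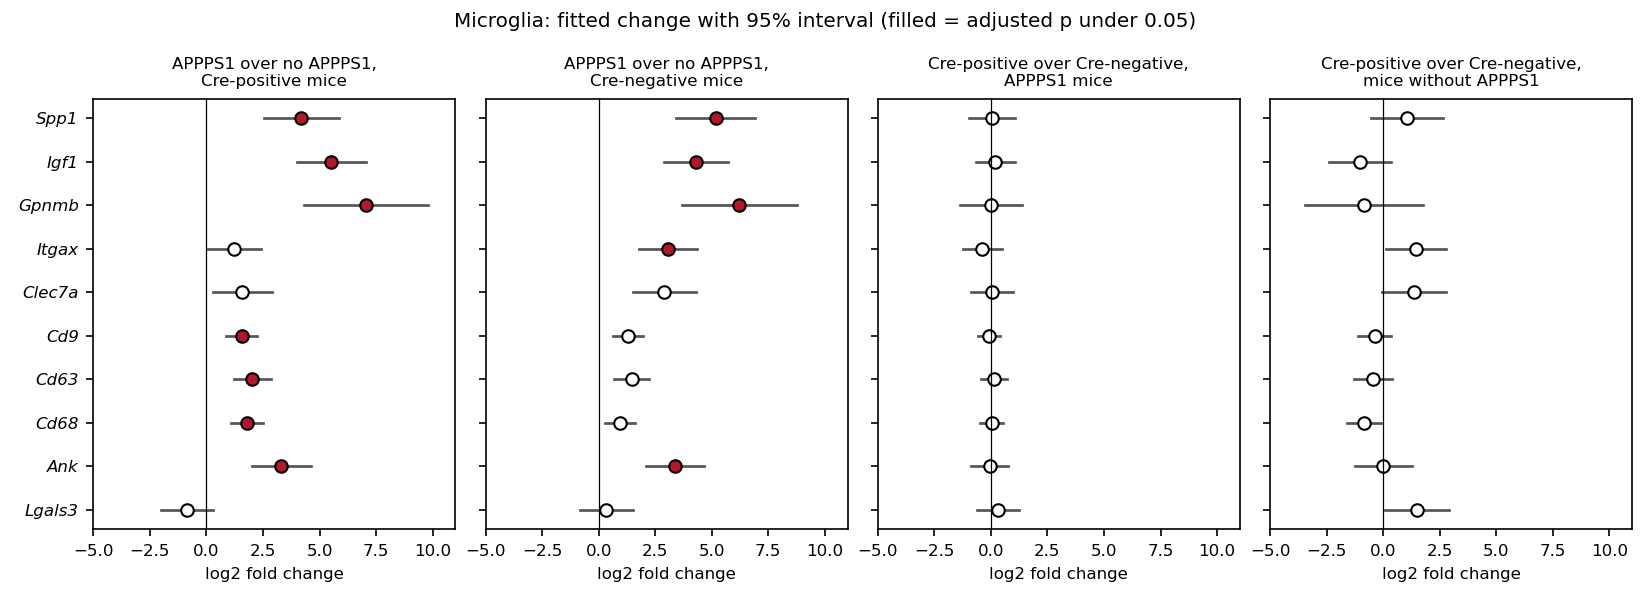
Log2 fold change of each gene in microglia with its 95% interval from edgeR's fit, for APPPS1 against no APPPS1 in Cre-positive and in Cre-negative mice (left pair) and for Cre-positive against Cre-negative mice with and without APPPS1 (right pair). Filled points passed at an adjusted p under 0.05: 7 and 5 in the left pair and 0 in each panel of the right pair.

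Between Cre-positive and Cre-negative mice no change of these genes was detected in microglia. The comparison asks what Cre and the lowering of human APOE in astrocytes change together. All Cre-positive mice carried floxed APOE4, so the effects of Cre and of APOE4 loss cannot be told apart. Human APOE was lowered, not absent, with a median of 574 CPM in APPPS1 Cre-positive and 1473 CPM in APPPS1 Cre-negative astrocytes. In APPPS1 mice, Cre-positive against Cre-negative, 0 of the 10 members passed with edgeR, 0 had an unadjusted p under 0.05, and DESeq2 and limma-voom also called 0, while 0.00568% of all genes were called. Spp1 averaged 180 ± 51.3 CPM (SD, n = 4) in Cre-positive and 166 ± 102 CPM (SD, n = 5) in Cre-negative APPPS1 microglia. Its log2 fold change was 0.07, with a 95% interval from -0.95 to 1.09. Clec7a averaged 287 ± 57.15 CPM in the Cre-positive mice and 269 ± 157 CPM in the Cre-negative ones, with an interval from -0.90 to 0.98. The narrowest intervals were those of Cd9, from -0.58 to 0.40, and Cd68, from -0.46 to 0.55. The widest was that of Gpnmb, from -1.36 to 1.39.

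In mice without APPPS1, 0 members passed for Cre with edgeR (0.0114% of all genes), DESeq2 and limma-voom, and 3 had an unadjusted p under 0.05 with edgeR. Itgax had 19.2 and 63.3 CPM in Cre-positive against 15.7 and 12.3 CPM in Cre-negative mice (log2 fold change 1.45, adjusted p = 0.302). Lgals3 had a log2 fold change of 1.499 (adjusted p = 0.320) and Cd68 one of -0.84 (adjusted p = 0.305). Mouse 26, with the low microglia identity sum of 21080 CPM and the high monocyte and neutrophil sum of 9037 CPM, held the highest Itgax and Lgals3 and the lowest Cd68 of the 4. The test of whether the amyloid change differed with Cre called 0 members with edgeR (0% of all genes), DESeq2 and limma-voom, and 1, Itgax, had an unadjusted p under 0.05 (log2 difference -1.82, adjusted p = 0.538).

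Between genes, levels were compared per kilobase of merged exon. Merged exons join all annotated transcripts of a gene, with 9904 bases for Igf1, 6514 for Gpnmb and 3682 for Cd63. The order below depends on these lengths. In plain CPM, Igf1 averaged 197.5 in APPPS1 microglia, above Ank at 174 and Spp1 at 172. In APPPS1 microglia Cd68 stood highest at 2106 ± 484 CPM per kb (SD, n = 9), followed by Cd9 at 1100 ± 257 and Cd63 at 413 ± 113. Clec7a, at 105 ± 44.35, and Spp1, at 104 ± 48.1, did not differ beyond their spread, Clec7a being the higher in 5 of 9 libraries. Next came Lgals3 at 51.3 ± 25.2 and Ank at 48.3 ± 21.4, also within their spread, and then Itgax at 20.2 ± 8.90 and Igf1 at 19.9 ± 8.54, likewise. Gpnmb stood lowest at 14.1 ± 8.32, below Igf1 in 9 of 9 libraries. In microglia without APPPS1 Gpnmb was also lowest, at 0.164 ± 0.143 CPM per kb (SD, n = 4), and Lgals3 came next after Cd63, at 79.7 ± 76.05, above Clec7a in 4 of 4 libraries.

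Within the 9 APPPS1 mice the members, Lgals3 apart, went up and down together. Mouse 469, Cre-negative, held the lowest level of all 10 genes, Lgals3 included. Mouse 779, Cre-negative, held the highest level of 6 and mouse 774, also Cre-negative, of 3. Mice 439 and 443 were among the lowest 3 for 9 of the 10. Of the 45 pairs of members, the 36 without Lgals3 had Pearson correlations of log2 CPM from 0.80 to 0.98 (median 0.92, n = 9 libraries). With mouse 469 left out they ran from 0.73 to 0.96, and with the 2 libraries farthest from the median of the first gene left out, from 0.49 to 0.96. The 9 pairs with Lgals3 ran from -0.05 to 0.41. With an exact permutation test per pair, two-sided and adjusted over the 45 pairs, 36 pairs passed with Pearson's r and 34 with Spearman's rho. Spp1 and Gpnmb, for example, had r = 0.968 (exact permutation p = 3.58e-05, adjusted p = 0.000599) and rho = 0.983 (exact permutation p = 4.96e-05, adjusted p = 0.00112), and r was 0.955 without the 2 farthest libraries. All genes of a library share its depth and purity, and the 4 Cre-positive and 5 Cre-negative libraries are too few for values of their own. The share of all gene pairs that would pass the same test is not given here. Mouse 469 also had the highest sum of immediate early genes of the 9, at 16130 CPM, and mouse 779 the lowest, at 5046 CPM. The sum of the 16 astrocyte identity genes was likewise highest in mouse 469, at 258 CPM, and lowest in mouse 779, at 137 CPM, with 224 CPM in each of mice 439 and 443. The part of dissociation and of astrocyte RNA in this order was not tested.

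**Figure D4:**
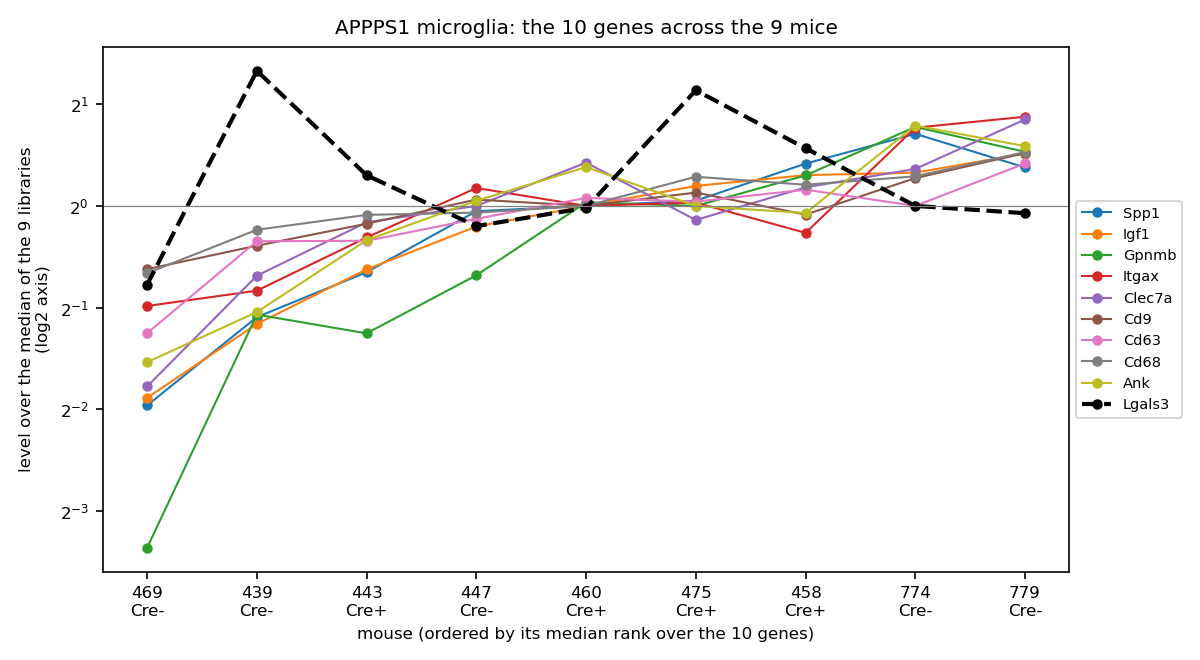
Level of each of the 10 genes in the 9 APPPS1 microglia libraries, divided by that gene's median over the 9 (log2 axis), with mice ordered by their median rank over the genes and their Cre state below. The solid lines run together from mouse 469 at the left to mouse 779 at the right, while Lgals3 (dashed) peaks in mouse 439, at 182 CPM.

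The genes most like the mean of the members over these 9 libraries, among 8051 compared, were Psat1 (r = 0.995), Fabp3, Cst7, Ramp1, Syngr1, Cox6a2, Ifi27l2a and Fabp5 (r = 0.986). Psat1 encodes an enzyme of serine synthesis, Fabp3 and Fabp5 encode fatty acid binding proteins, and Cst7 encodes cystatin F. All 8 were also the leading 8 with a smaller prior count, and 3 of the 8 with rank correlation. Of the 8051 genes, 6.65% had an r of at least 0.8 and 2.16% of at least 0.9.

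Of 29 tested genes from a list of other plaque-associated microglia genes 24 rose and 0 fell, with a median log2 fold change of 1.43. Cst7 averaged 1295 ± 624 CPM (SD, n = 9) in APPPS1 microglia and 11.4 ± 2.31 CPM (SD, n = 4) without (log2 fold change 7.01, adjusted p = 8.93e-05). Lpl, lipoprotein lipase, had a log2 fold change of 4.03, Axl, a receptor tyrosine kinase, 3.40 and Csf1, a ligand of the CSF1 receptor, 2.46. Many of these genes have been described in the same microglia as the members, so their count is not independent of the choice.

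Receptors for the secreted members mostly did not pass. Of 10 tested osteopontin receptors and relatives, Itga5 rose (log2 fold change 0.79) and Itga4 fell (-1.90), and Cd44 had 41.3 ± 18.7 CPM in APPPS1 microglia and 145.5 ± 172 CPM without (adjusted p = 0.0511). The median of that list was -0.58. Of 11 tested receptors and binding proteins of insulin-like growth factors 0 rose and 1 fell, Igf2r, at 0.931 ± 0.543 CPM in APPPS1 microglia and 5.73 ± 8.11 CPM without. Of 8 tested beta2 integrins and ligands 0 rose and 2 fell, Vcam1 (-0.81) and Itgal (-1.42). Itgb2, the chain that pairs with CD11c, had 848 ± 141 CPM in APPPS1 microglia and 723 ± 106 CPM without (adjusted p = 0.172). Itga4, Cd44, Igf2r and Itgal are also expressed by leukocytes of the blood, and each was highest in mouse 26, the library with 9037 CPM of monocyte and neutrophil genes. Itga4, for example, lay at 248 CPM in mouse 26 and at 28.7 CPM in mouse 22, the next. The part of blood cells in these changes was not tested. Without mice 26 and 439, Itga5 (0.97) and Vcam1 (-0.95) passed in these 3 lists. Itga4 (-0.90), Igf2r (-0.80) and Itgal (-0.79) then did not pass (adjusted p 0.175 to 0.3615).

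Of 13 tested genes of dectin-1 signalling 0 rose and 5 fell, namely Rel, Syk, Malt1, Vav3 and Prkcd. Syk, the kinase that binds the receptor's tail, had 84.5 ± 14.3 CPM in APPPS1 microglia and 136 ± 35.7 CPM without (log2 fold change -0.54, adjusted p = 0.0193). Rel, an NF-kB subunit, had a log2 fold change of -0.87. The median of the list was -0.14. Without mice 26 and 439 the 5 had log2 fold changes of -0.32 (Prkcd) to -1.03 (Vav3), with -0.39 for Syk and -0.73 for Rel, and 0 of the 13 passed with edgeR (adjusted p 0.0905 to 0.264 for the 5). Of the 13, 5 then had an unadjusted p under 0.05, namely Rel, Syk, Vav3, Prkcd and Fcer1g. Fcer1g went the other way, with a log2 fold change of 0.56. The list's median was -0.22.

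Relatives of the membrane members rose in part. Of 15 other tetraspanins 3 rose and 0 fell, namely Tspan4 (0.83), Cd37 (0.51) and Cd81 (0.63), and the median log2 fold change was 0.42. Of 12 tested lysosomal membrane genes 4 rose and 0 fell (median 0.34). Atp6v0d2, a subunit of the proton pump, had 5.68 ± 3.45 CPM in APPPS1 microglia and 0.0319 ± 0.0216 CPM without (log2 fold change 7.63, adjusted p = 0.00227). Its mean without APPPS1 lay under the level of 3 counts in those libraries (0.0637 to 0.115 CPM), so the size of its fold changes is uncertain. Lamp2, Scarb2 and Laptm4b rose by 0.55 to 0.68 on the log2 scale. Of the 4 MiT/TFE factors, which drive lysosomal genes, 0 passed with edgeR and 0 had an unadjusted p under 0.05, with log2 fold changes from -0.82 for Tfec to 0.24 for Mitf. Of 7 tested genes of pyrophosphate and phosphate handling 1 rose, Enpp1, which makes pyrophosphate outside the cell (log2 fold change 1.10, adjusted p = 0.0184). Of 6 tested other galectins and partners 2 rose. Lgals3bp, the galectin-3 binding protein, had 740 ± 251 CPM in APPPS1 microglia and 184 ± 64.6 CPM without (log2 fold change 2.22, adjusted p = 0.00162), and Lgals9 rose by 0.56. Without mice 26 and 439, Atp6v0d2 (9.06) and Lgals3bp (2.18) still passed, and 24 of the 29 other plaque-associated genes rose. The other 8 genes named as risen in these lists then had log2 fold changes of 0.41 (Cd81) to 1.06 (Enpp1) and did not pass (adjusted p 0.0578 to 0.130). For Cre in APPPS1 microglia 0 genes passed with edgeR in each of these lists, and 0 to 2 genes of a list had an unadjusted p under 0.05.

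In astrocytes edgeR called no member for amyloid averaged over Cre or in Cre-negative mice. Of the 10, 9 passed the filter on low counts and were tested, Itgax being left out, and 0 passed with edgeR averaged over Cre (0% of 20052 genes). At an unadjusted p under 0.05 there was 1, Lgals3, with 6.20 ± 2.52 CPM (SD, n = 9) in APPPS1 astrocytes and 2.79 ± 1.21 CPM (SD, n = 4) without. Its log2 fold change was 1.25 (SE 0.37, adjusted p = 0.412), and its adjusted p was 0.0470 with DESeq2 and 0.0988 to 0.9999 in the other fits. DESeq2 called 1 member and limma-voom called 0. Gpnmb lay at 0.164 to 8.04 CPM in APPPS1 astrocytes and at 3.36 to 7.40 CPM without. Ank averaged 115 ± 25.02 CPM in APPPS1 astrocytes and 121.5 ± 43.7 CPM without, and Cd63 averaged 1137 ± 175 CPM in APPPS1 astrocytes and 1014 ± 80.5 CPM without. In Cre-negative astrocytes 0 passed for amyloid with edgeR, DESeq2 and limma-voom (0% of all genes with edgeR), and 1, Spp1, had an unadjusted p under 0.05. For Cre in APPPS1 astrocytes 0 passed with the same 3 tools (0.00997% of all genes with edgeR), and again 1, Spp1, had an unadjusted p under 0.05.

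Spp1 was the single member that edgeR called within astrocytes, and its calls rested on few libraries. In Cre-positive astrocytes it had 19.65, 27.65, 4.12 and 25.1 CPM with APPPS1 and 1.37 and 0.886 CPM without. In Cre-negative astrocytes it had 11.2, 7.44, 5.06, 9.63 and 4.29 CPM with APPPS1 and 14.6 and 48.9 CPM without. The order of the groups with and without APPPS1 was thus opposite in the Cre states, with no overlap in either. The log2 fold change for amyloid was 4.04 (adjusted p = 0.0388) in Cre-positive astrocytes, where 0.578% of all genes were called higher. It was -2.08 (adjusted p = 1) in Cre-negative astrocytes. For Cre without APPPS1 it was -4.82 (adjusted p = 0.0479, 0.16% of all genes called lower), and the difference of the amyloid change between the Cre states was 6.12 (adjusted p = 0.0364, 0.14% of all genes called higher). Without mouse 22 the adjusted p of these 3 calls was 0.246 to 0.308, and without mouse 26 it was 0.263 to 0.364. Without mouse 759, the highest library, it was 0.216 for Cre without APPPS1 and 0.110 for the difference. The calls were also lost without mouse 443, 447, 469 or 475 (adjusted p 0.0555 to 0.0834). Of the 3 calls, 2 were lost without each of mice 458, 774 and 779 (0.0506 to 0.0728). DESeq2 called Spp1 in all 3 comparisons, and limma-voom called it in 0. Without mouse 439 Lgals3 passed as well for amyloid in Cre-positive astrocytes (log2 fold change 1.89, adjusted p = 0.0304).

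Markers of other cells also differed between these astrocyte libraries, in part in the order of Spp1. The summed level of 13 oligodendrocyte genes was 4232 and 6983 CPM in mice 22 and 26, against 7978 and 24820 CPM in mice 465 and 759. The sum of 14 endothelial genes was 329 and 366 CPM in mice 22 and 26, against 669 and 1465 CPM in mice 465 and 759. In APPPS1 Cre-positive astrocytes the oligodendrocyte sum was 6777, 15170, 2946 and 11540 CPM, in the same order of mice as Spp1 from the lowest, mouse 460, to the highest, mouse 458. The endothelial sum in those 4 was 1598, 1101, 552 and 1360 CPM, each above mice 22 and 26. In APPPS1 Cre-negative astrocytes the oligodendrocyte sum ran from 3739 to 16090 CPM, and mouse 469, with the highest, had 5.06 CPM of Spp1. The endothelial sum there ran from 783 to 1729 CPM. Mouse 439 held the highest Spp1 of that group, at 11.2 CPM. Its oligodendrocyte sum was 4212 CPM, and its endothelial sum, 1729 CPM, was the highest of the group. For amyloid averaged over Cre in astrocytes, 0 of the 14 endothelial genes passed with edgeR, 13 had an unadjusted p under 0.05, and their median log2 fold change was 1.37. The part of these cells in the Spp1 levels was not tested.

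Clec7a, Itgax, Cd68 and Igf1 were low in most astrocyte libraries. Clec7a had 0 counts in 7 of the 9 APPPS1 libraries and in 3 of the 4 others, and Itgax had 0 in 6 of 9 and in 3 of 4. Igf1 lay at 0 to 0.978 CPM in APPPS1 astrocytes and, of those without APPPS1, at 3.095 CPM (125 counts) in mouse 759 and 0 to 0.110 CPM in the other 3. Mouse 774 stood apart, with 13.3 CPM of Clec7a, 7.92 CPM of Cd68 and 1.09 CPM of Itgax in its astrocyte library. That library also held 438 CPM of the 14 monocyte and neutrophil genes, against 14.5 to 57.7 CPM in the other 12, S100a8 being at 184 CPM and Camp at 0.

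Set against each other in the same mice, the sorts differed in the opposite sense for some members with and without amyloid. In APPPS1 mice all 10 members were higher in microglia than in astrocytes, where 34.5% of all genes were. Cd68 averaged 2647 ± 608 CPM in APPPS1 microglia and 2.27 ± 2.49 CPM in APPPS1 astrocytes (SD, n = 9 each). The smallest differences were those of Cd63 (log2 fold change 0.99, SE 0.18) and Ank (1.18, SE 0.25). In mice without APPPS1, 6 members were higher in microglia (29.2% of all genes) and 3 were lower (32.7% of all genes). The lower ones were Ank, at 19.1 ± 3.97 CPM in microglia and 121.5 ± 43.7 CPM in astrocytes (log2 fold change -2.28, adjusted p = 2.6e-05), Gpnmb (-2.01, adjusted p = 0.0424) and Cd63 (-0.62, adjusted p = 0.0439). Spp1 had 8.09 ± 5.89 CPM in microglia and 16.4 ± 22.6 CPM in astrocytes and did not pass (adjusted p = 0.310). Its fitted log2 fold change of 0.70 averages the Cre states on the log2 scale, and the sorts stood in opposite order in these. In Cre-positive mice Spp1 lay at 5.96 and 16.45 CPM in microglia and at 1.37 and 0.886 CPM in astrocytes. In Cre-negative mice it lay at 7.26 and 2.70 CPM in microglia and at 14.6 and 48.9 CPM in astrocytes. With the mouse as a block, which pairs the sorts of each animal, Gpnmb (adjusted p = 0.0615) and Cd63 (0.0728) no longer passed, and 7 members remained called.

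The amyloid change was larger in microglia than in astrocytes for 5 of the 10 members by the test of the difference, while 0.773% of all genes passed that test in this direction. The log2 differences were 6.92 for Gpnmb (adjusted p = 0.00205), 3.73 for Spp1 (0.0100), 3.46 for Ank (0.000656), 1.61 for Cd63 (0.0102) and 1.18 for Cd9 (0.0439). With the mouse as a block 2 passed, Gpnmb and Ank, and the adjusted p was 0.0729 for Spp1, 0.0745 for Cd63 and 0.109 for Cd9. The count was 2 without mouse 26 or mouse 759 and 3 without mouse 22 or mouse 465. The other 5 did not pass. Igf1 had a log2 difference of 4.91 (95% interval 0.44 to 9.38, adjusted p = 0.268) and Lgals3 one of -1.48 (-2.68 to -0.27, adjusted p = 0.210), both with an unadjusted p under 0.05. The intervals were -11.5 to 4.22 for Clec7a, -4.69 to 3.19 for Itgax and -0.74 to 3.09 for Cd68, low genes in astrocytes.

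**Figure D5:**
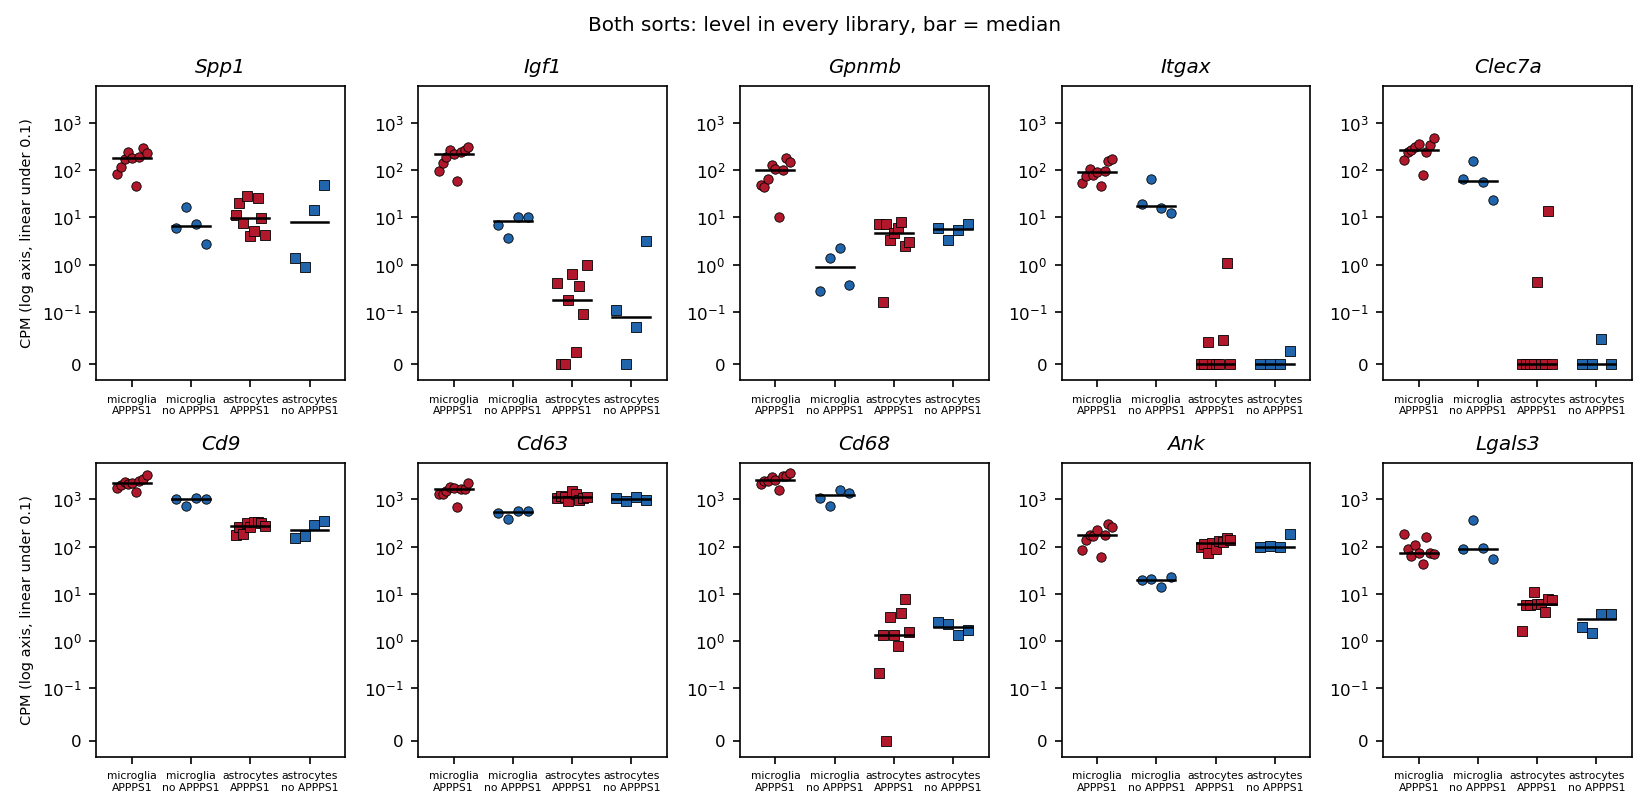
Level of each of the 10 genes in every library of both sorts, as CPM on a log axis that is linear under 0.1, with microglia of APPPS1 mice (n = 9) and of mice without APPPS1 (n = 4) left of astrocytes of the same mice. Bars are medians; Ank, Cd63, Gpnmb and Spp1 without APPPS1 have higher medians in astrocytes than in microglia, and Clec7a and Itgax have a median of 0 CPM in astrocytes.

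Astrocyte levels were also set against the microglia level of the same mouse. The 15 microglia identity genes summed to 0.215% to 0.712% of the microglia level in the astrocyte libraries. Cd68 lay between 0% and 0.319% and Itgax between 0% and 0.687%. Igf1 had a median of 0.141% and reached 30.6% in mouse 759, and Clec7a had a median of 0% and reached 3.86% in mouse 774. Cd63, at 51.5% to 241%, Ank, at 39.6% to 808%, Cd9, at 8.07% to 35.0%, Spp1, at 1.84% to 1812%, and Gpnmb, at 0.380% to 2133%, lay above the share of the identity genes in every mouse, and Lgals3, at 0.425% to 14.5%, did so in every mouse but mouse 26.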

How the data were processed

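Mouse brains were dissociated, microglia and astrocytes were sorted by FACS with antibodies against CD11b and ACSA-2, and SMARTer libraries were sequenced, per the labels' protocols. The authors deposited 1 table of raw counts per gene for mouse and human genes. Per the submitters' processing notes, bcl2fastq, STAR and featureCounts of Subread were used with the builds GRCm38 and GRCh38. The annotation release and the strand setting are not given in the sources used here. The table had 95966 rows, of which repeated IDs (258, identical) were kept once, giving 40481 mouse and 55093 human genes.

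Tests used the quasi-likelihood F test of edgeR 4.0.16 (R 4.3.3) on the deposited mouse counts, after filterByExpr with the groups and TMM scaling. Each fit held the 13 libraries of a sort, or all 26, with 1 term per group. A gene was called at an adjusted p under 0.05, by the Benjamini-Hochberg method over every gene in the fit. Standard errors are the absolute log2 fold change over the square root of F. Levels are plain CPM, whereas fold changes use TMM scaling. Human genes took 0.042% to 0.237% of the counts. Depth was enough that a floor of 3 counts lay at or under 0.115 CPM, a limit that covers counting error only. Mouse numbers in the sample names were taken as animals, and the numbers mark separate mice in each group.

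The mouse number pairs the sorts, since both came from 1 brain per the labels. The correlation of same-mouse deviations was -0.024 to 0.127. Correlations over libraries used log2 CPM with a prior count of 2. Sequences were taken from RefSeq on GRCm38.p6 and positions from GENCODE M21. All 10 symbols matched, and both strands were searched for motifs. The statistics were tested on simulated data. The genes named are the members, up to 4 genes of lowest p in each list, every gene of a list of 5 or fewer, and the 8 most like the members; other genes of a list were named after their values were seen.

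The members, the 20 other gene lists and the tests were chosen with earlier results of these data known. Alternatives were DESeq2 1.42.0, limma-voom (limma 3.58.1), RLE scaling, no filter, markers of the other sort as a covariate, 1 surrogate variable (sva 3.50.0), the compared groups alone, mouse 459 included, the mouse as a block, and each mouse left out. Leaving out mice 26 and 439 was chosen after seeing the data.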

Additional observations from a re-analysis of the deposited data

Results flagged for a closer look

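Of 40 sets of 4 or 5 libraries checked for a sample far from the rest, 6 were flagged, where chance flags about 1 in 20 independent sets. That rate need not hold for sets mostly at 0, such as Clec7a and Itgax in astrocytes, nor for sets that share a library. The astrocyte library of mouse 774 was far above the other APPPS1 Cre-negative astrocyte libraries for Clec7a (13.32 CPM), Cd68 (7.917 CPM) and Itgax (1.086 CPM). It also held 184 CPM of S100a8 and 132 CPM of S100a9, and the part of other cells was not tested. Among APPPS1 Cre-positive astrocytes, Clec7a was highest in mouse 460 (0.4394 CPM, 26 counts) and Itgax in mouse 475 (0.0461 CPM, 2 counts, under the floor of 3). Lgals3 in the microglia of mouse 439, at 182.3 CPM, stood above the other 4 APPPS1 Cre-negative libraries.

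Effects that differed between groups by the test of the difference were the amyloid change of Spp1 between Cre states in astrocytes (log2 difference 6.118) and the amyloid changes of Gpnmb (6.917), Spp1 (3.729), Ank (3.456), Cd63 (1.611) and Cd9 (1.183) between microglia and astrocytes. With the mouse as a block, Spp1 (adjusted p = 0.0729), Cd63 (0.0745) and Cd9 (0.109) did not pass.

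Human rows of the members lay above the floor of 3 counts in few libraries. Human SPP1 had 61 counts in the astrocytes of mouse 26, beside 39 counts of mouse Spp1, and stood above the floor in 1 library. Human IGF1 reached 10 counts (microglia of mouse 460), CD9 reached 10 (microglia of mouse 475), ANKH reached 8 (astrocytes of mouse 460) and CD63 reached 4 (astrocytes of mouse 779).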

How the results depend on the processing

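The members' fold changes kept their direction wherever they passed, and the counts of members called moved. Shares of all genes called are given for the main edgeR fits only, so counts from other fits stand without such a share. The averaged amyloid comparison in microglia called 9, and 8 to 9 with 1 mouse left out. It called 1 with mouse 459 included and 0 with the marker covariate. In Cre-negative microglia (5 called) the count was 0 with mouse 459, limma-voom or the compared groups alone, 2 with the covariate, 3 with a surrogate variable, 8 with DESeq2 or no filter, and 0 to 8 with 1 mouse left out. In Cre-positive microglia (7 called) it was 0 with mouse 459, the covariate or mice 26 and 439 left out, 1 with a surrogate variable, and 0 to 8 with 1 mouse left out. The cause of these moves was not tested. In astrocytes DESeq2 called 1 for averaged amyloid, 3 for amyloid in Cre-positive mice, 2 for Cre without APPPS1 and 2 for their interaction, where edgeR called 0, 1, 1 and 1. Each of the last 3 was 0 with mouse 459, limma-voom, the covariate or a surrogate variable, and the first 2 of them were also 0 with the compared groups alone. With 1 mouse left out they were 0 to 2, 0 to 1 and 0 to 1. The difference of the amyloid change between sorts (5 called) was 1 with mouse 459, 2 with limma-voom, 2 with the mouse as a block that pairs the sorts, and 2 to 6 with 1 mouse left out. The block left 10 of 10 in the sort comparison of APPPS1 mice. Each group without APPPS1 held 2 mice, and a count of 3 lay at or under 0.115 CPM in every library.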
